A study of Mus musculus with 3 samples.

Results

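The receptors for interleukin-6 (IL-6), IL-10, IL-12 and interferon-gamma were described through 10 genes that encode their chains. The genes were taken by name: Il6ra and Il6st for the IL-6 receptor, Il27ra for the IL-27 receptor, which also uses Il6st, Il10ra and Il10rb for the IL-10 receptor, Il12rb1 and Il12rb2 for the IL-12 receptor, Il23r for the IL-23 receptor, which also uses Il12rb1, and Ifngr1 and Ifngr2 for the interferon-gamma receptor. All 10 were found by symbol among the 55536 genes of the deposited gene tables. The data were RNA-seq of polyadenylated RNA from primary mouse cells labelled as activated regulatory T cells. A single biosample from a male animal aged 9 weeks gave 3 libraries, which the labels number as technical replicates 1 to 3 and which form 1 group. The strain name, Foxp3GFP-DTRCD4CreERT2R26tdTomato, joins 3 alleles that every library carries. Foxp3GFP-DTR places a green fluorescent protein and a diphtheria toxin receptor under the Foxp3 gene, CD4CreERT2 is a tamoxifen-inducible Cre driven by Cd4, and R26tdTomato is a Cre-dependent red reporter at the Rosa26 locus. How the cells were isolated or activated, and whether tamoxifen or toxin was given, is not given in the sources used here. With no resting or other cells in the group, levels are described, and the only tests ask whether the libraries differ. Since the libraries share 1 biosample, SDs and p-values cover only the differences between these libraries, and those may be technical.

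These receptors have no kinase of their own. A cytokine brings the chains of its receptor together, the Janus kinases bound to the chains then phosphorylate STAT transcription factors, and SOCS proteins and phosphatases limit the signal. In CD4 T cells, IL-6 acting through gp130 (the product of Il6st) and STAT3 opposes the induction of Foxp3 and favours IL-17-producing cells, IL-12, acting through STAT4, and interferon-gamma induce the factor T-bet, and IL-10 acting through STAT3 is used by regulatory T cells to restrain inflammation. IL-27 signals through STAT3 among others and can raise IL-10 production.

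The libraries held 20783525, 21206150 and 18496578 estimated counts in replicates 1, 2 and 3. A count of 0 allowed up to 3 counts, or 0.144, 0.141 and 0.162 CPM (counts scaled to library size). The label was checked against marker lists. All 8 regulatory T cell markers, Foxp3 included, and all 6 T cell markers reached 1 TPM (transcripts scaled to a fixed total, a level per transcript length) in every library, with summed levels of 3360 to 3664 TPM and 7874 to 8833 TPM. Markers of other cells summed to 49.6 to 55.1 TPM for B cells, 31.0 to 45.5 TPM for myeloid and dendritic cells (S100a8 at 0), 3.65 to 4.59 TPM for NK cells, 11.2 to 15.4 TPM for gamma-delta T cells (Sox13 at 0), 18.5 to 24.3 TPM for CD8 T cells and 0.86 to 1.12 TPM for stromal and endothelial cells (Pdgfra and Pdgfrb at 0). Erythroid markers were higher, at 909 to 1270 TPM, and highest in replicate 2. In such bulk samples, fewer cells with a transcript and less of it per cell cannot be told apart.

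Of the 10 receptor chains, 9 reached 1 TPM in every library, against 47.3% of 22028 protein-coding genes. Ifngr1, Il27ra and Il6st were the most abundant, and Il23r was the chain below the threshold. The chains spanned a 990-fold range of mean TPM. Their median was 70.3 TPM, against 0.81 TPM over all protein-coding genes and 26.1 TPM over the 10425 that reached 1 TPM in every library. In the order of mean levels (Ifngr1, Il27ra, Il6st, Il10rb, Il10ra, Il12rb1, Il6ra, Ifngr2, Il12rb2, Il23r), the library values of neighbours did not overlap in 8 of 9 pairs. Il6ra and Ifngr2 were the neighbours that overlapped. The authors' second gene table, which has fewer counts and an older annotation, gave other levels when its counts were divided by gene length and scaled to a fixed total over its own genes. On that scale Il6ra was at 25.7, Il6st at 296, Il10ra at 124 and Il12rb1 at 187. Il12rb2 was at 16.2, Il23r at 1.66 and Ifngr2 at 28.8, and each of these was over 1.5 times its mean TPM. The library totals of the second table were 29.3 to 31.1% of the first, while the median over 11838 genes kept 47.1% of its counts. A rise on this scale thus does not by itself mean a higher level, and the shift over all genes was not tested. On the same scale Il27ra, Ifngr1 and Il10rb were at 451, 461 and 101. The order of the chains was thus another there, with Il12rb1 above Il10ra and Il10ra above Il10rb.

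**Figure D1:**
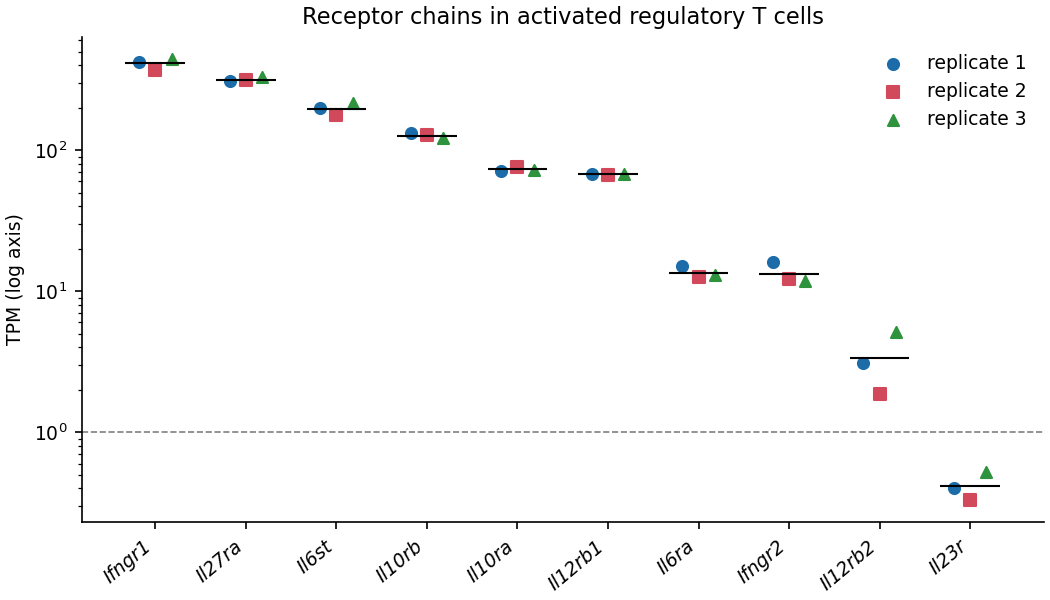
TPM of the 10 receptor chains in each of 3 libraries (log axis); points are replicates 1, 2 and 3, black lines their means, and the dashed line marks 1 TPM. The means run from 413 TPM for Ifngr1 to 0.417 TPM for Il23r, and Il12rb2 has the widest spread of the chains above 1 TPM.

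The IL-6 receptor pairs a ligand-binding chain, Il6ra, with the signalling chain gp130, encoded by Il6st. Il6ra (ENSMUSG00000027947.11, chr3:89864059-89913196, minus strand, mm10) stood at 15.00, 12.69 and 12.92 TPM in replicates 1, 2 and 3, from 751, 721 and 591 estimated counts. Il6st (ENSMUSG00000021756.12, chr13:112464070-112510086, plus strand) stood at 200.29, 177.29 and 214.08 TPM, from 9423, 9357 and 9131 counts. The ligand-binding chain was thus the lower of the pair in every library, and no library value of one came near the other. Il6ra averaged 13.5 ± 1.27 TPM and Il6st 197 ± 18.6 TPM (SD, n = 3), and Il6st exceeded Il6ra 13.4-, 14.0- and 16.6-fold. On the log2(TPM + 0.1) scale, Il6ra minus Il6st was -3.85 ± 0.16, where a difference was called larger than the spread between libraries if all libraries had its sign and its mean exceeded 2 SD.

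IL-27 uses gp130 together with its own chain, Il27ra, also known as WSX-1. Il27ra (ENSMUSG00000005465.9, chr8:84030294-84042589, minus strand) stood at 306.74, 313.53 and 328.79 TPM, a mean of 316 ± 11.3 TPM, from 9219, 10026 and 8844 counts. It was above Il6st in every library, by 1.53-, 1.77- and 1.54-fold. The log2 difference, Il27ra minus Il6st, was 0.69 ± 0.12 and larger than the spread. Of the chains that pair with gp130, Il27ra was therefore far above Il6ra, and the other members of the family were lower still. Il11ra1, the IL-11 receptor chain, was at 5.88 ± 1.41 TPM, and Lifr, Osmr, Il31ra and Cntfr (receptors for LIF, oncostatin M, IL-31 and CNTF) had 0 to 8 estimated counts in any library.

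Il6st was spread over several annotated transcripts. Il6st-201, which encodes the longest form (2751 coding bases), held 57.1 ± 1.24% of the gene's TPM, and the 3 detected transcripts with that coding length held 64.4 ± 1.66%. Il6st-205, of 322 bases, held 25.0 ± 2.72% of TPM but 1.87% of the gene's counts, since TPM divides by length. Il6st-209 lacks exon 7 of Il6st-201, 83 bases at chr13:112493589-112493671, and its annotated coding sequence has 981 bases. Between these forms, the one without the exon took 14.9, 16.1 and 12.7% of their TPM in replicates 1, 2 and 3. The letters in capitals are the 83 bases, with 20 bases on each side, read from GENCODE M21 transcripts on the plus strand of GRCm38 (mm10), and the join in Il6st-209 is shown to make plain what differs.
Il6st-201: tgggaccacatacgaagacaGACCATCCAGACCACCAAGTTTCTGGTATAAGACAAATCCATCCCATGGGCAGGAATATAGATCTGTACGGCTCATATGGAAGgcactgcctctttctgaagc
Il6st-209: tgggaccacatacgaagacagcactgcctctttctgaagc

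The IL-10 receptor consists of Il10ra, which binds IL-10 and recruits Jak1, and Il10rb, a chain shared with the receptors for IL-22 and interferon-lambda that recruits Tyk2. Il10ra (ENSMUSG00000032089.16, chr9:45253837-45269149, minus strand) stood at 70.58, 75.82 and 72.28 TPM, from 3217, 3623 and 2941 counts. Il10rb (ENSMUSG00000022969.13, chr16:91406164-91425834, plus strand) stood at 132.44, 126.99 and 121.35 TPM, from 3117, 3107 and 2544 counts. Both chains were well above threshold in each library, with Il10rb the higher. Il10ra averaged 72.9 ± 2.67 TPM and Il10rb 127 ± 5.55 TPM (SD, n = 3), a log2 difference of -0.80 ± 0.09, larger than the spread. The direction depended on the table. In the second gene table Il10ra minus Il10rb was 0.30. Il10rb kept 17.9% of its estimated counts there, against a median of 47.1% over 11838 genes. Over the 4333 of these with a mean count of 1000 or more, as Il10rb had, the median was 41.3%. Gm21970, a protein-coding model on the same strand that shares 569 exon bases with Il10rb, had 0 counts in both tables. Il10ra-201 held every count of Il10ra, and Il10rb-201 held 90.2 ± 2.10% of the TPM of Il10rb.

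In the IL-12 receptor the specific chain was low and the shared chain high. Il12rb1 (ENSMUSG00000000791.9, chr8:70808449-70821424, plus strand), which binds the p40 subunit common to IL-12 and IL-23, stood at 68.04, 67.16 and 67.89 TPM from 2285, 2312 and 2112 counts. Il12rb2 (ENSMUSG00000018341.12, chr6:67291318-67376188, minus strand), the chain that makes the receptor specific for IL-12 and docks STAT4, stood at 3.12, 1.86 and 5.12 TPM from 122, 75.8 and 178 counts. Il12rb1 hardly varied, whereas Il12rb2 was lowest in replicate 2 and highest in replicate 3. Il12rb2 averaged 3.37 ± 1.64 TPM and Il12rb1 67.7 ± 0.471 TPM (SD, n = 3), so that Il12rb1 exceeded Il12rb2 21.8-, 36.1- and 13.3-fold. Il12rb2 minus Il12rb1 was -4.40 ± 0.70 in log2, larger than the spread, and -3.58 in the second gene table.

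Il12rb2 lies tail to tail with Serbp1, an abundant gene for an RNA-binding protein on the opposite strand, at 433 ± 23.0 TPM. Exons of Serbp1 cover 819 bases of the exons of Il12rb2-201, the transcript that held all of the Il12rb2 counts. Whether reads were counted by strand is not given in the sources used here, so Serbp1 reads inside the level of Il12rb2 cannot be told apart. Serbp1 stood at 458.63, 414.24 and 425.71 TPM in replicates 1, 2 and 3, from 8112, 8324 and 7000 estimated counts. Its part in the level of Il12rb2 was not tested.

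Il23r (ENSMUSG00000049093.9, chr6:67422932-67491855, minus strand), the next gene along from Il12rb2, encodes the IL-23-specific chain found on IL-17-producing T cells. It had 13, 11 and 15 counts, with 95% Poisson intervals of 6.92 to 22.2, 5.49 to 19.7 and 8.40 to 24.7 counts that cover counting error only. These gave 0.40, 0.33 and 0.52 TPM, a mean of 0.417 ± 0.0961 TPM, below the threshold in every library but above the 3 counts that a count of 0 allows. In the second gene table Il23r had 11, 11 and 13 counts, which its own scale put at 1.66. That scale is not TPM, so the threshold of 1 TPM does not carry over to it. Il23r minus Il12rb1 was -7.05 ± 0.26 in log2 and -5.60 with a pseudocount of 1, and Il12rb1 exceeded Il23r 168-fold on average.

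Il12rb1 itself had a common alternative form. Il12rb1-201, with 2214 coding bases, held 69.5 ± 6.11% of its TPM, and 12.6 ± 3.88% lay in transcripts with a retained intron. Il12rb1-205 lacks exon 14, 97 bases at chr8:70819325-70819421, and has 2004 annotated coding bases. It took 14.9, 24.4 and 20.1% of the TPM of these 2 forms in replicates 1, 2 and 3, so its share ranged more widely between libraries than the level of the gene. The exon is shown in capitals with 20 bases on each side, because 97 is no multiple of 3 and its loss shifts the reading frame.
Il12rb1-201: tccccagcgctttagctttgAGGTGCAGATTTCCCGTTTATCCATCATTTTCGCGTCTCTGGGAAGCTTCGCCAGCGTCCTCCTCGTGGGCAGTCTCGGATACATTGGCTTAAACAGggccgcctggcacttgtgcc
Il12rb1-205: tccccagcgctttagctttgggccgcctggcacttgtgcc

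In the interferon-gamma receptor the ligand-binding chain was high and its partner low. Ifngr1 (ENSMUSG00000020009.13, chr10:19591949-19610229, plus strand), which binds interferon-gamma and docks Jak1, stood at 424.70, 368.89 and 443.93 TPM, from 10860, 9896 and 10199 counts. Ifngr2 (ENSMUSG00000022965.8, chr16:91547072-91565623, plus strand), the chain that brings Jak2, stood at 16.08, 12.14 and 11.71 TPM, from 422, 430 and 268 counts. Every library had far more Ifngr1 than Ifngr2. Ifngr1 averaged 413 ± 39.0 TPM, above 98.6% of protein-coding genes, and Ifngr2 13.3 ± 2.41 TPM (SD, n = 3). The ratio of Ifngr1 to Ifngr2 was 26.4, 30.4 and 37.9 in replicates 1, 2 and 3, and the log2 difference, 4.95 ± 0.26, was larger than the spread. In the second gene table it was 4.02.

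**Figure D2:**
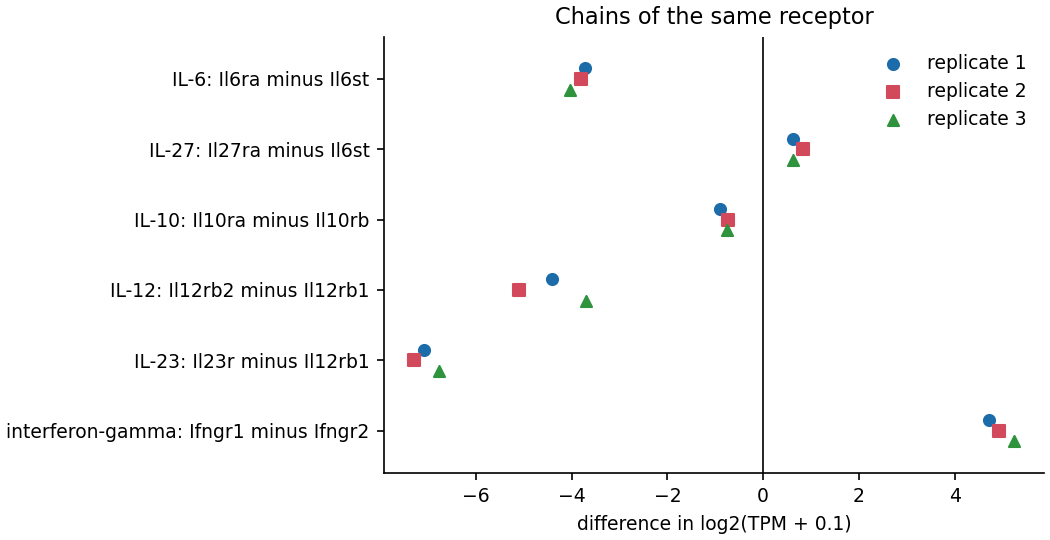
Difference in log2(TPM + 0.1) between chains of the same receptor in replicates 1, 2 and 3 (points). Il27ra and Ifngr1 lie to the right of 0, above their partners, and Il6ra, Il10ra, Il12rb2 and Il23r to the left, with means of 0.69, 4.95, -3.85, -0.80, -4.40 and -7.05.

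Both interferon-gamma receptor genes had a sizeable share of TPM in transcripts annotated as targets of nonsense-mediated decay, the pathway that degrades RNA with an early stop codon. For Ifngr1 these held 31.4, 24.4 and 25.1% of TPM, a mean of 27.0 ± 3.88%, and Ifngr1-201, the full coding form, held 67.1 ± 3.71%. Ifngr1-203 lacks the last 14 bases of exon 2, at chr10:19597517-19597530, and its annotated coding sequence ends after 225 bases in place of 1431. Between these forms, the shorter one took 33.3, 26.1 and 26.6% of TPM, and 27.3 ± 3.95% of counts. The 14 bases are in capitals, with 20 bases on each side.
Ifngr1-201: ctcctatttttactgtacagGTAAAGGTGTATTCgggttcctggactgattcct
Ifngr1-203: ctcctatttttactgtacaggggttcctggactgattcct

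For Ifngr2, the form without exon 2 (Ifngr2-202, 133 bases at chr16:91554948-91555080) is annotated with 138 coding bases in place of 996. It took 52.7, 34.8 and 54.2% of the TPM of Ifngr2-201 and Ifngr2-202, but 12.9, 6.60 and 13.6% of their counts, since Ifngr2-202 is annotated at 534 bases and Ifngr2-201 at 3708. The coding form of Ifngr1 alone averaged 277 ± 27.6 TPM, and that of Ifngr2 6.96 ± 1.40 TPM. Transcript shares are the authors' estimates, and reads that several forms share were divided among them. Exon 2 is in capitals, joined to 20 bases of its neighbours.
Ifngr2-201: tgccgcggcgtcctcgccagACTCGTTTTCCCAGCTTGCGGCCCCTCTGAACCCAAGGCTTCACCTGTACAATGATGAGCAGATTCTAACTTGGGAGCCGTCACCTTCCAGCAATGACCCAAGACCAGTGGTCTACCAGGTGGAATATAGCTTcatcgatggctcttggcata
Ifngr2-202: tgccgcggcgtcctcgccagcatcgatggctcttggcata

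Across the 10 chains, the share of TPM in protein-coding transcripts differed widely. It was 52.7 ± 10.9% for Ifngr2, 67.1 ± 3.71% for Ifngr1, 80.3 ± 0.670% for Il27ra, 87.4 ± 3.88% for Il12rb1 and 90.2 ± 2.10% for Il10rb (SD, n = 3). It was 100% for Il6ra, Il6st, Il10ra, Il12rb2 and Il23r. In Il27ra the remainder was mainly Il27ra-203, a 527-base transcript with a retained intron, at 15.8 ± 0.827% of TPM and 3.31% of counts. In Il6ra, Il6ra-201 held 88.1 ± 3.07% and the rest lay in Il6ra-202, which has a longer exonic length of 8639 bases and nearly the same coding length, 1377 against 1380 bases. With the transcripts of the longest coding sequence only, a choice made after seeing the data, all 6 chain differences kept their sign, and Ifngr1 overlapped Il27ra and Il6st overlapped Il10rb in level.

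**Figure D3:**
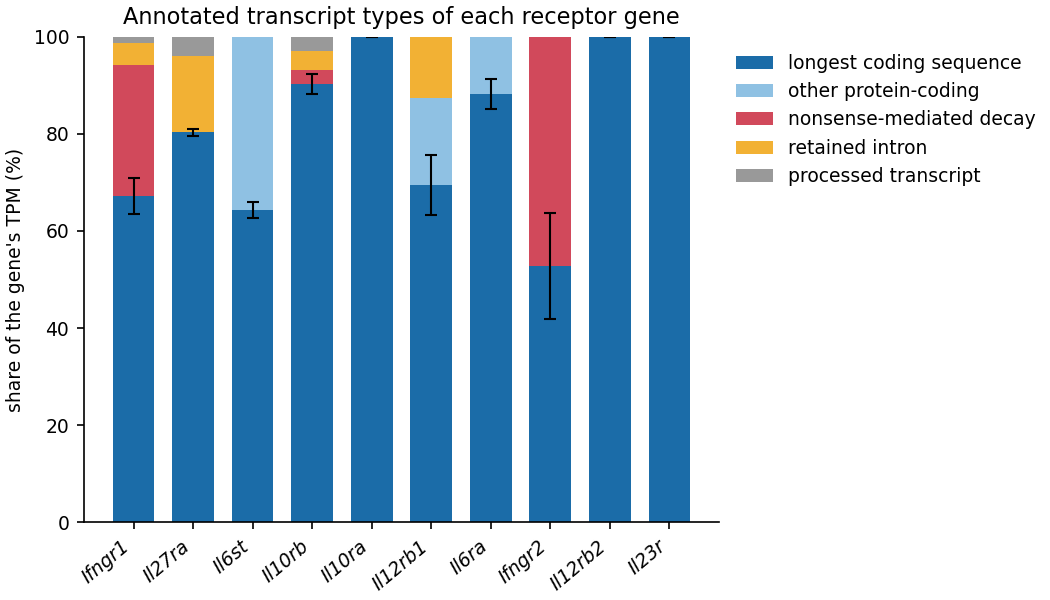
Share of each receptor gene's TPM (%) by annotated transcript type, mean of 3 libraries, genes ordered by level; error bars are the SD of the share of transcripts with the longest coding sequence. Ifngr1 and Ifngr2 carry the large nonsense-mediated decay shares (27.0 and 47.2%), and Il27ra and Il12rb1 the retained-intron shares (15.8 and 12.6%).

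The libraries were compared gene by gene with a chi-square test of homogeneity on rounded estimated counts, adjusted by Benjamini-Hochberg over 14641 genes. Of the 10 chains, 7 differed at an adjusted p under 0.05, beside 44.9% of all genes tested and 55.4% of the 9956 genes with a mean count of 100 or more. Il12rb2 moved most, by 2.69-fold between its highest and lowest CPM (adjusted p = 2.53e-12), with replicate 3 highest and replicate 2 lowest. Ifngr2 moved 1.40-fold (adjusted p = 4.54e-05), with replicate 3 lowest and replicates 1 and 2 alike in CPM. Ifngr1 moved 1.18-fold (adjusted p = 8.97e-31) and Il6st 1.12-fold (adjusted p = 2.59e-13), both highest in replicate 3 and lowest in replicate 2. Il10ra, Il10rb and Il27ra moved 1.10-, 1.09- and 1.08-fold (adjusted p = 0.000538, 0.0118 and 1.92e-06). The changes of Il6st, Il10ra, Il10rb and Il27ra were smaller than the median of 1.15-fold over genes with a mean count of 100 or more. Il6ra (1.13-fold, adjusted p = 0.143), Il12rb1 (1.05-fold, adjusted p = 0.370) and Il23r (1.56-fold on 39 counts, adjusted p = 0.613) did not pass the test. Of the 7 chains that differed, 2, 1 and 4 were highest in replicates 1, 2 and 3, beside 38.1, 31.7 and 30.2% of all 6575 genes that differed. With TMM or DESeq2 scaling Ifngr2 was highest in replicate 2 in place of replicate 1.

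Several of these calls rested on 1 library. Without replicate 3 the adjusted p was 0.142 for Il6st, 0.516 for Il10rb and 0.989 for Ifngr2. Without replicate 1 it was 0.0573 for Il10rb and 0.610 for Il27ra, and without replicate 2 it was 0.481 for Il10ra. The calls for Il12rb2 and Ifngr1 held without any 1 library. By the second gene table, 4 of 10 chains differed, Il6st, Il12rb2, Ifngr1 and Ifngr2, beside 23.2% of 10885 genes. Il12rb2 had 131, 96 and 184 counts there, with the same order of libraries. Ifngr1, Il6st and Il12rb2 were lowest in replicate 2. There the erythroid markers were highest (1270 TPM) and the T cell markers lowest (7874 TPM). All 5 T cell markers that differed between libraries were highest in replicate 3 and lowest in replicate 2, as these chains were. The regulatory T cell list had another order, with sums of 3664, 3520 and 3360 TPM in replicates 1, 2 and 3. Each gene in it, Foxp3 included, had its lowest CPM in replicate 3, where these chains were highest. The test called 7 genes in this list, and 3, 4 and 0 were highest in replicates 1, 2 and 3. Myeloid and dendritic markers summed to 44.1, 31.0 and 45.5 TPM in replicates 1, 2 and 3. Of the 7 tested, 3 differed, beside 44.9% of all genes tested. Csf1r and Adgre1 were highest in replicate 3 and lowest in replicate 2, and Cd68 was highest in replicate 1. Proliferation markers summed to 529, 404 and 456 TPM. Of these, 7 of 8 differed, beside 44.9% of all genes tested and 55.4% where the mean count was 100 or more. The part of these marker lists in the differences was not tested.

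**Figure D4:**
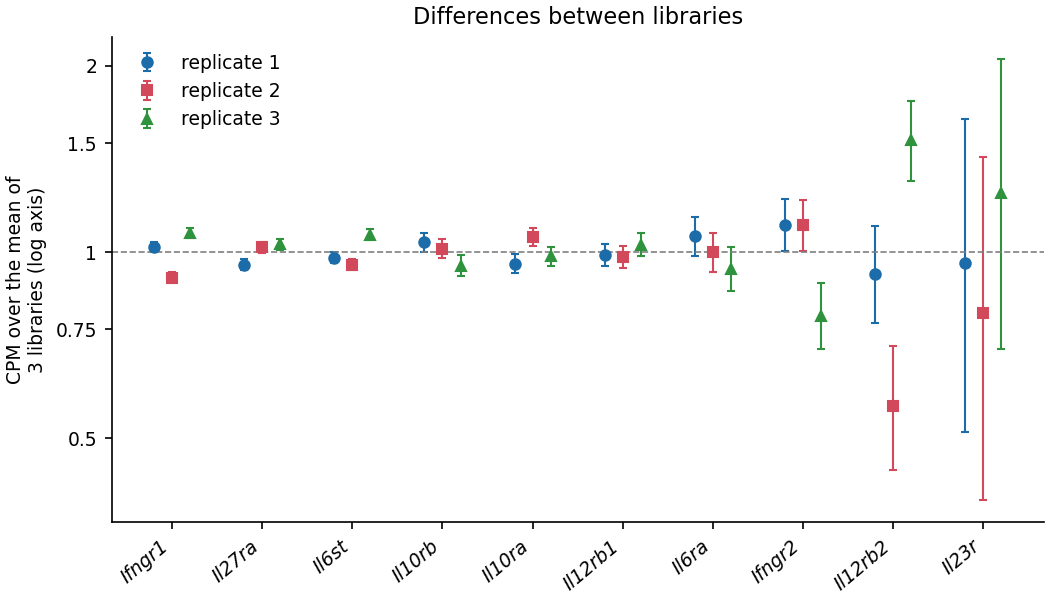
CPM of each receptor chain in replicates 1, 2 and 3 divided by its mean over the 3 libraries (log axis); bars are 95% Poisson intervals of the counts, which cover counting error only. Il12rb2 is spread most widely beyond its intervals, Il23r has intervals that span all its points, and the abundant chains stay close to 1.

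The kinases and STATs that these chains use were detected. The 4 Janus kinases all reached 1 TPM in every library, and all 4 differed between libraries, beside 44.9% of all genes tested and 55.4% where the mean count was 100 or more. Jak1, bound by Il6st, Il10ra, Il27ra and Ifngr1, was at 403 ± 69.0 TPM (SD, n = 3), Jak3, which serves the common gamma chain receptors, at 166 ± 32.8 TPM and Tyk2, bound by Il10rb and Il12rb1, at 98.7 ± 5.78 TPM. Jak2, which pairs with Ifngr2 and Il12rb2, was the lowest, at 8.86, 9.00 and 10.76 TPM. All 7 STATs were detected and all 7 differed between libraries, beside the same 44.9 and 55.4%. Stat3, through which IL-6 and IL-10 act, was at 264 ± 15.6 TPM, Stat6 at 244 ± 10.4 TPM and Stat2, the lowest, at 82.2 ± 2.02 TPM. Stat4, which Il12rb2 docks, was at 190 ± 14.1 TPM.

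Among 12 inhibitors, all were detected and 9 differed between libraries, beside 47.3% of protein-coding genes detected and 44.9% of all genes tested that differed. The highest were the phosphatase gene Ptpn6 (326 ± 31.9 TPM), Cish (196 ± 10.6 TPM) and Ptpn1 (155 ± 23.3 TPM), and the lowest was Pias2 (7.77 ± 0.260 TPM). Of 6 genes for shedding and trafficking, all were detected and 4 differed (beside 47.3 and 44.9%), led by Adam10 (101 ± 6.84 TPM), Traf2 (88.9 ± 1.40 TPM) and Adam17 (70.6 ± 4.31 TPM), with Erlin1 lowest (5.79 ± 0.173 TPM). Adam10 and Adam17 encode proteases that can release the IL-6 receptor from the surface.

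Of 14 ligands of these and related receptors, 6 were detected, and 4 of the 6 with enough counts differed, beside 47.3% of protein-coding genes detected and 44.9% of all genes tested that differed. Ebi3, a subunit of IL-27 and IL-35, was highest at 65.6 ± 2.26 TPM, followed by Osm (25.0 ± 0.599 TPM) and Clcf1 (19.0 ± 1.17 TPM). Il23a, the lowest, had 0 counts in every library, which allows up to 0.144, 0.141 and 0.162 CPM. Ifng, the ligand of Ifngr1, stood at 14.49, 8.59 and 17.41 TPM, and Il10, the ligand of Il10ra, at 8.28, 4.92 and 5.51 TPM; both genes were named after their values were seen. Ifng was lowest in replicate 2 and highest in replicate 3, the same order as Il12rb2.

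Of 20 target genes of these cytokines, 19 were detected (beside 47.3%) and 12 differed between libraries, a share near the 55.4% of genes with a mean count of 100 or more. The highest were the interferon-inducible GTPase gene Igtp (504 ± 14.5 TPM), Junb (448 ± 99.6 TPM) and Irf1 (394 ± 12.2 TPM), and the lowest was Ciita (0.990 ± 0.181 TPM), which controls MHC class II genes. By the distance of log2(TPM + 0.1) over the 3 libraries, a likeness of level, the nearest of 111 pathway genes was Irf1 for Ifngr1, Gbp4 for Il27ra (distance 0.102), Stat4 for Il6st (0.109), Ebi3 for Il12rb1 (0.114) and Adam17 for Il10ra (0.206). It was Ptpn11 for Il6ra, Bcl3 for Ifngr2, Gbp2 for Il10rb, Il6 for Il23r and Lif for Il12rb2, where the distance of 1.18 was the largest of the 10.

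**Figure D5:**
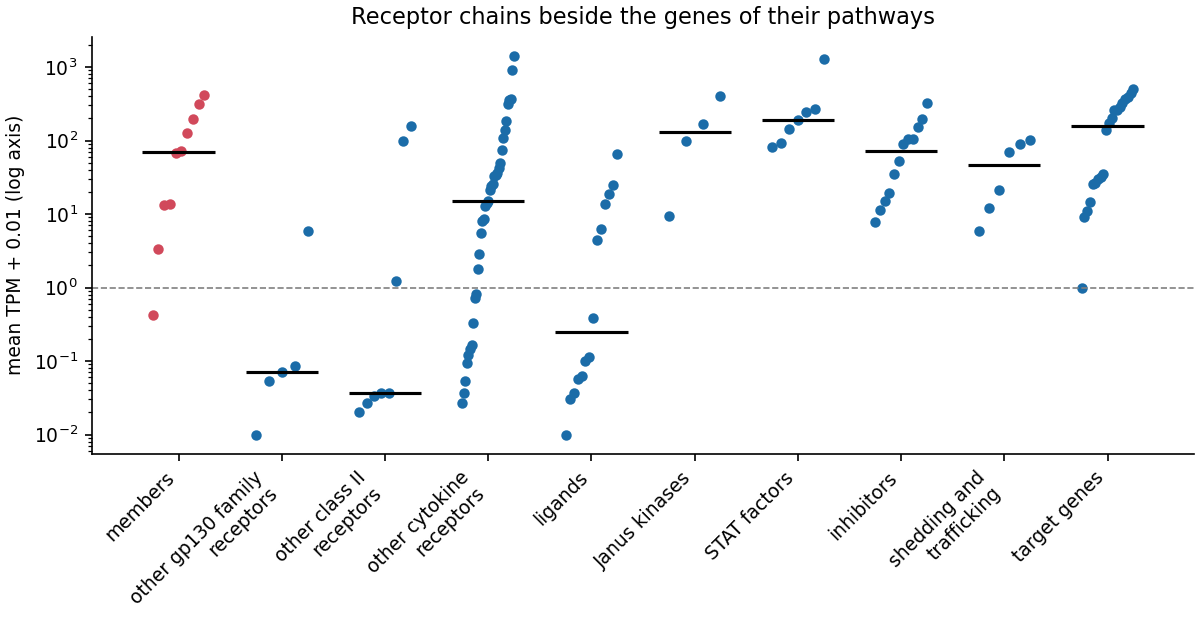
Mean TPM over 3 libraries plus 0.01 (log axis) of the 10 receptor chains (red) and of the genes of each pathway list (blue); black lines are list medians and the dashed line marks 1 TPM. The chains' median, 70.3 TPM, lies above those of the other receptor lists and of the ligands, and below those of the Janus kinases (133 TPM) and STATs (190 TPM).

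The 10 chains were set beside 48 other cytokine receptor genes: the remaining gp130 family, the remaining class II receptors and 35 receptors of other cytokines. The chains had a median of 70.3 TPM and the others 6.99 TPM, of which 28 of 48 were detected (beside 47.3%) and 22 of 32 tested differed between libraries (beside 44.9%). The difference of medians in log2(TPM + 0.1) was 3.29 ± 0.18 over the libraries, and 1.04 over genes that reached 1 TPM in every library, since many of the other receptors were near 0. Among all 58 genes, Ifngr1 ranked 3 in mean TPM, after Il2rg (1427 ± 42.8 TPM) and Il2rb (918 ± 89.0 TPM), and above Tnfrsf1b (366 ± 20.4 TPM). Lepr, the leptin receptor, was the lowest of the receptors of other cytokines, at 0.017 TPM. Il27ra, Il6st, Il10rb, Il10ra and Il12rb1 ranked 6, 8, 12, 16 and 17. The lowest of the class II list was Il22ra1 (0.010 TPM), and Ifnar1 (157 ± 2.11 TPM), Ifnar2 (99.9 ± 16.2 TPM) and Il20rb (1.20 ± 0.221 TPM) were its highest.

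Some chains lie beside relatives or other expressed genes. Ifnar2, Il10rb, Ifnar1 and Ifngr2 follow one another on the plus strand of chromosome 16, and stood at 99.9, 127, 157 and 13.3 TPM, so the lowest level in this run was that of Ifngr2. Il22ra2, the neighbour of Ifngr1, and Il31ra, the neighbour of Il6st, had summed counts of 2 and 5. Rln3, the relaxin-3 gene, ends 339 bases upstream of the start of Il27ra, on the same strand, and stood at 180.57, 154.97 and 144.90 TPM in replicates 1, 2 and 3. The library order of Rln3 was the reverse of that of Il27ra. Gm42809, antisense to the first exon of Il6ra, was at 1.70 ± 0.397 TPM, and Palm3, which overlaps Il27ra by 2 bases, at 2.44 ± 0.469 TPM.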

How the data were processed

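Polyadenylated RNA was sequenced in 3 libraries of 1 biosample, fragmented by shearing per the labels. Per library, the authors deposited gene and transcript tables with the columns that RSEM writes, on mm10 with GENCODE M21 per the deposited notes. They hold the authors' estimated counts (expected counts, which divide shared reads among genes), TPM, FPKM, posterior mean TPM with 95% credibility bounds, and the transcript share in percent. A second deposited gene table holds whole-number counts on GENCODE M4. Of the aligner, the quantifier's version, the strand setting and the counting of the second table, the sources used here say nothing.

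Genes were matched by GENCODE M21 symbol. Deposited TPM values were averaged over libraries, a gene was called detected at 1 TPM or more in each library, and log2 values use a pseudocount of 0.1. A log2 difference of low genes is understated by the pseudocount. Library totals leave out 26345 rows without a gene name. Transcript shares were computed from deposited transcript TPM. To compare libraries, estimated counts were rounded to whole numbers, and each gene with 30 or more summed counts was set against the library totals by Pearson's chi-square (2 degrees of freedom), with Benjamini-Hochberg adjustment. With 1 group, no quasi-likelihood test applied. The test was tested on simulated counts. Sequences are GENCODE M21 exons on GRCm38.

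The members and lists were chosen with earlier results of these data known. Named were all 10 chains, the 3 highest and the lowest gene of each pathway list (all in lists of up to 5), the nearest pathway gene of each chain in level, and overlapping or neighbouring genes. Tslpr of the listed receptors was not matched. A gene chosen this way is not reported here but was kept in the counts and medians. Alternatives were other thresholds, pseudocounts and filters, FPKM, TMM and DESeq2 scaling, a likelihood ratio statistic, the second table and leaving out each library. Scaling factors came from edgeR 4.0.16 and DESeq2 1.42.0 in R 4.3.3. Other steps used scipy 1.17.1, pandas 2.3.3 and numpy 2.4.6, and plots matplotlib 3.10.9, in Python 3.11.15.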

Additional observations from a re-analysis of the deposited data

How the results depend on the processing

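No paired analysis was possible because all libraries belong to 1 group. Detection of 9 chains held under every alternative run except at 2 TPM, where 8 were detected. In the second gene table the difference Il10ra minus Il10rb reversed to 0.30, 4 chains differed between libraries, and 2520 genes differed. The other 5 chain differences kept their direction and stayed larger than the spread under other pseudocounts, FPKM, the second table, the longest coding transcripts (chosen after seeing the data) and leaving out each library. Their size moved most with a pseudocount of 1 for Il23r minus Il12rb1 (-5.60) and in the second table for Ifngr1 minus Ifngr2 (4.02) and Il12rb2 minus Il12rb1 (-3.58). Leaving out 1 library gave 4 to 6 chains and 3782 to 4701 genes that differed, 27.7 to 34.0% of 13675 to 13828 genes tested. The cause was not tested, apart from fewer samples. The chains minus the other receptors gave 1.04 over genes at 1 TPM or more and 3.01 with means in place of medians. Levels moved by more than the SD for 10 of 10 chains in the second table, where Il12rb2 was at 16.2 and Il23r at 1.66 on its own scale, and for 7 each with posterior mean TPM and with the longest coding transcripts. Il23r, with 39 counts in all, is limited by depth.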

Other observations

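The second gene table retained unequal parts of the estimated counts of the chains. It held 109% of the estimated counts for Il12rb2 and 61.7% for Il12rb1, against 17.9% for Il10rb and 25.2% for Ifngr1. The median was 47.1% over 11838 genes, and 41.3% over the 4333 with a mean count of 1000 or more. The library totals of the second table were 30.3, 29.3 and 31.1% of those of the first in replicates 1, 2 and 3. Rln3, the neighbour of Il27ra, had 521, 480 and 429 counts there, so its reads were counted under both annotations. Socs3, which binds gp130 and limits IL-6 signals, stood at 70.47, 49.69 and 37.13 TPM in replicates 1, 2 and 3 (adjusted p = 7.64e-61), and Socs1, which limits interferon-gamma signals, at 15.35, 10.12 and 8.05 TPM (adjusted p = 7.97e-18). Tbx21, which encodes T-bet, stood at 15.33, 7.43 and 10.18 TPM (adjusted p = 6.84e-19). These 3 genes were named after their values were seen. Socs3 and Socs1 were highest in replicate 1 and lowest in replicate 3, and Ifngr1, Il6st and Il12rb2 were highest in replicate 3. Of the 9 inhibitors that differed, 5, 2 and 2 were highest in replicates 1, 2 and 3. Over all genes that differed, the shares were 38.1, 31.7 and 30.2%. A link between these inhibitors and the chains was not tested.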
